A study of Caenorhabditis elegans with 17 samples.

Results

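The small RNAs bound by the nuclear Argonaute NRDE-3 were compared between exos-10(ok2269) animals and control animals, with 1 library each of the 17 in the series. Both libraries came from L3 Caenorhabditis elegans grown at 20°C that carried eri-1(mg366) and a 3xFLAG::GFP::NRDE-3 transgene, so the control animals are eri-1 mutants too. The FLAG-tagged protein was immunoprecipitated from whole animals, and its RNA was sequenced after a treatment that captures small RNAs whatever their 5′ phosphates. Homozygous exos-10(ok2269) animals give few progeny, according to the study. The targets described here are the genes outside rRNA with 100 or more antisense reads in either library, which were 3035 of 45506 genes in the files. They comprised 2615 protein-coding genes, 221 genes of the ncRNA class, 63 snoRNA genes, 41 transposon genes, 32 snRNA genes, 32 tRNA genes, 12 lincRNA genes, 12 spliced leader genes and 7 miRNA genes.

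NRDE-3 binds short antisense RNAs that RNA-dependent RNA polymerases copy from target transcripts, and carries them into the nucleus, where they silence the matching nascent RNA. EXOS-10 is the worm counterpart of a nuclear exonuclease of the RNA exosome, the complex that trims and degrades rRNA precursors, snRNAs, snoRNAs and faulty transcripts. Antisense small RNAs made from rRNA are called risiRNAs. In eri-1 mutants the primary endogenous siRNAs of the ERI pathway are lost, which leaves NRDE-3 free for other small RNAs.

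The exos-10(ok2269) library held 9332841 counted reads and the control library 9545120. Of these, 2143632 reads (23.0%) were antisense in exos-10(ok2269), against 363487 (3.81%) in the control. Antisense reads on protein-coding genes were 1201774 in exos-10(ok2269) and 166764 in the control, or 12.9% and 1.75% of all reads. Sense rRNA took 30.7% of the exos-10(ok2269) reads and 60.7% of the control reads. Sense miRNA reads were 124384 in exos-10(ok2269) and 791848 in the control. Sense reads of nrde-3 itself, which include those of the transgene, were 20145 in exos-10(ok2269) and 54069 in the control. The gene that the reference annotation names crn-3, which encodes the worm counterpart of human EXOSC10, lies on chromosome II from 10588042 to 10592652 (WBcel235). It had 182 sense reads in exos-10(ok2269) and 197 in the control, so these counts do not check the label. The gene eri-1, which encodes a small-RNA exonuclease, had 56 sense reads in exos-10(ok2269) and 39 in the control. With 1 library per condition no difference has a replicate check, and the intervals below are exact 95% intervals that cover counting error only.

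Because the antisense share differed so much, the scale decides what counts as higher. Levels are given in antisense RPM, the antisense reads of a gene per 1000000 antisense protein-coding reads of the same library, and folds are ratios of antisense RPM unless stated. As a share of all reads, the folds of the NRDE-3 comparison are 7.37 times larger in favour of exos-10(ok2269). On a normalization number modelled on the study's, which leaves out sense rRNA and sense protein-coding reads, the folds are 3.45 times larger. The study started from all reads mapped to the genome, whereas here the counts summed over transcripts were used. On the antisense RPM scale, 357 of 3035 targets (11.8%) were at least 4-fold higher in exos-10(ok2269) and 220 (7.25%) were at least 4-fold lower, with 1 read added to each count. As a share of all reads, these counts were 2599 higher and 16 lower, and on the normalization number 2160 higher and 47 lower. The 100-read minimum also favours the library with more antisense reads: 2666 targets passed only through exos-10(ok2269), 37 only through the control and 332 in both. With an equal minimum of 600 antisense RPM in either library instead, an alternative chosen after seeing the data, 63 genes were higher and 207 lower, and the median log2 ratio was -1.43 in place of 0.83. The counts are therefore descriptions of these targets. At the threshold, C27F2.4 entered with 100 reads in exos-10(ok2269) and 11 in the control, while C02F5.3 stayed out with 99 in exos-10(ok2269) and 4 in the control.

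Among the rRNA genes, NRDE-3-associated antisense reads were higher for 26S, 5.8S and 5S rRNA but nearly level in antisense RPM for 18S rRNA. The 26S gene had 542527 antisense reads in exos-10(ok2269) and 3405 in the control, a 22.1-fold difference (21.4 to 22.9). For 5.8S rRNA there were 29230 reads in exos-10(ok2269) and 10 in the control, a 406-fold difference (221 to 846). The 16 genes of 5S rRNA together had 34535 reads in exos-10(ok2269) and 307 in the control, or 15.6-fold (14.0 to 17.5). Both 18S genes together had 8884 reads in exos-10(ok2269) and 1150 in the control, which is 1.07-fold (1.01 to 1.14). As a share of all reads 18S rRNA was 7.90-fold higher (7.43 to 8.41), so this depends on the scale. The 18S, 5.8S and 26S rRNAs are cut from a common precursor, whereas 5S rRNA is transcribed separately.

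**Figure D1:**
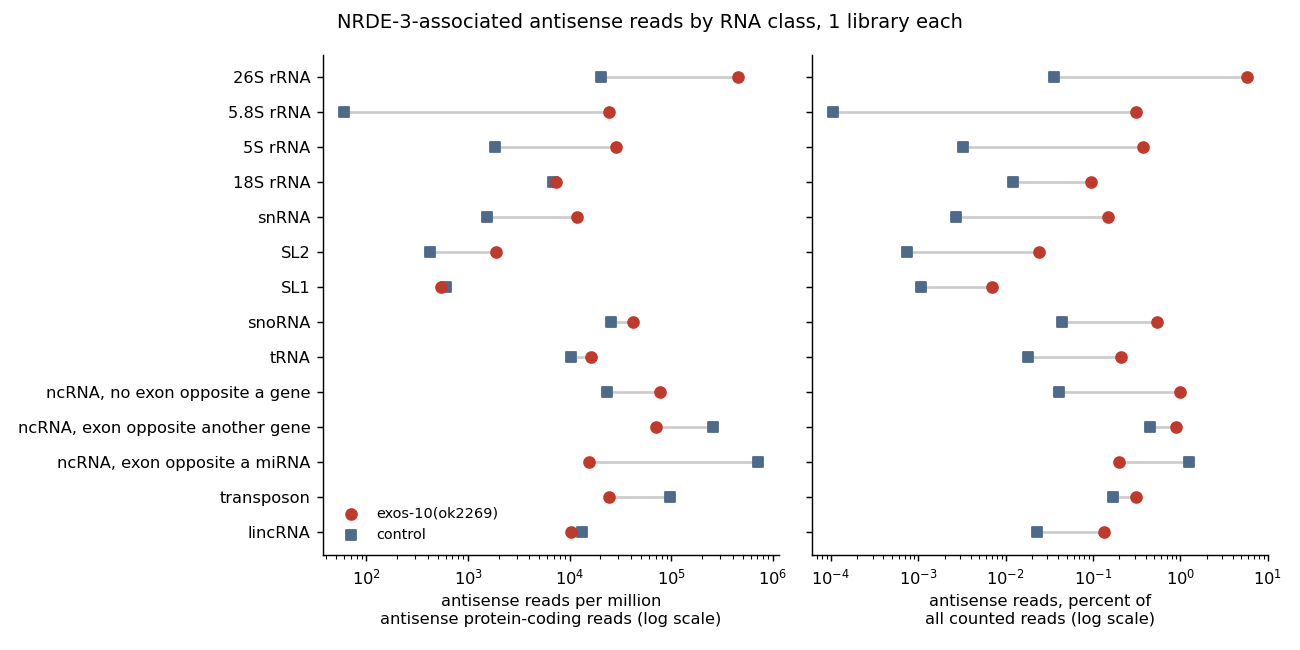
Antisense reads by RNA class in the exos-10(ok2269) library (circles) and the control library (squares), per 1000000 antisense protein-coding reads on the left and as a percent of all counted reads on the right, both on log scales. The 26S, 5.8S and 5S rRNAs and the snRNAs lie to the right in exos-10(ok2269) on both scales, and ncRNAs with an exon opposite a miRNA lie to the left on both.

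Beyond rRNA, antisense reads on several short, abundant structural RNAs were higher in exos-10(ok2269). The snRNAs are the RNA cores of the particles that splice mRNA precursors. Antisense snRNA reads were 14033 in exos-10(ok2269) and 257 in the control, a 7.58-fold difference (6.70 to 8.61). Of 96 snRNA genes in the files 32 were targets, 26 of them (81.25%) at least 4-fold higher and none at least 4-fold lower, and 2 had no read in the control. With those 2 genes set at their bounds, the median log2 ratio was 2.64. Over all targets 11.8% were at least 4-fold higher and 7.25% at least 4-fold lower. The 32 snRNA targets together held 198 reads in the control, so nearly all passed the 100-read minimum only through exos-10(ok2269). That favours higher calls. The snRNA genes without an exon opposite another gene gave a similar ratio, from 8312 reads in exos-10(ok2269) and 143 in the control (8.07-fold, 6.84 to 9.58). T08G5.11 had 1068 reads in exos-10(ok2269) and 20 in the control, and F40G12.13 had 816 in exos-10(ok2269) and 16 in the control. T08G5.11 lies opposite the ncRNA T08G5.18, whereas F40G12.13 has no such partner. Copies of an snRNA share sequence, so their reads are not independent.

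SmY RNAs, which belong to small nuclear particles involved in trans-splicing of the spliced leader, were among them. The gene smy-1 had 2244 reads in exos-10(ok2269) and 6 in the control, a 51.9-fold difference (23.8 to 142). It lies on chromosome IV from 9511763 to 9511839. The gene smy-2, which the files class as snoRNA, had 1586 reads in exos-10(ok2269) and 13 in the control (16.9-fold, 9.87 to 31.9). The others were named after their values were seen: smy-3 had 484 reads in exos-10(ok2269) and 11 in the control, smy-11 had 307 in exos-10(ok2269) and 3 in the control, and smy-8 had 235 in exos-10(ok2269) and 8 in the control. Every SmY gene named here had fewer than 20 reads in the control, so its ratio is loosely fixed.

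Antisense reads on spliced leaders were higher for SL2, while the SL1 sum rested on a single gene. The SL2 genes had 2272 antisense reads in exos-10(ok2269) and 71 in the control, a 4.44-fold difference (3.51 to 5.71). The SL1 genes had 657 reads in exos-10(ok2269) and 102 in the control, or 0.894-fold with an interval from 0.725 to 1.11. As a share of all reads SL1 was 6.59-fold higher (5.34 to 8.20). Of the SL1 reads, sls-1.12 held 498 in exos-10(ok2269) and 92 in the control (0.751-fold, 0.600 to 0.949). The other 11 SL1 genes together had 159 reads in exos-10(ok2269) and 10 in the control, or 2.21-fold (1.17 to 4.69), in a split chosen after seeing the data. Of 12 spliced leader targets 11 were above equality, and sls-1.12 was the exception. The 12 together held 159 reads in the control, so nearly all passed the 100-read minimum only through exos-10(ok2269). The SL1 genes had 648 reads of total small RNA in eri-1(mg366);exos-10(ok2269) and 198 in eri-1(mg366), a 4.72-fold difference (4.02 to 5.56). Among single SL2 genes, sls-2.11 had 311 reads in exos-10(ok2269) and 6 in the control. SL2 is spliced mainly onto downstream genes of operons, SL1 onto other trans-spliced mRNAs.

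The signal recognition particle RNA, the scaffold of the particle that directs nascent proteins to the endoplasmic reticulum, was the most abundant non-rRNA target in exos-10(ok2269). The gene srpr-2.2 (chromosome III, 5031410 to 5031708) had 45392 antisense reads in exos-10(ok2269) and 716 in the control, an 8.80-fold difference (8.17 to 9.48). Its paralog srpr-2.1 (chromosome III, 5211220 to 5211518) had 14057 reads in exos-10(ok2269) and 241 in the control, an 8.09-fold difference (7.13 to 9.23). The counting could divide reads between such paralogs. The RNA of RNase MRP, mrpr-1, which takes part in rRNA processing, had 2013 reads in exos-10(ok2269) and 32 in the control. The RNA of RNase P, rpr-1, which matures tRNA 5′ ends, had 636 in exos-10(ok2269) and 15 in the control. These 2 genes, named after their values were seen, were 8.73-fold (6.16 to 12.8) and 5.88-fold (3.54 to 10.6) higher. ZK265.11, an ncRNA on chromosome I from 8245547 to 8245622, had 4623 reads in exos-10(ok2269) and 33 in the control. Its sense reads moved the same way, with 36530 in exos-10(ok2269) and 2960 in the control.

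Antisense reads on snoRNAs, which guide modification and processing of rRNA, were 50264 in exos-10(ok2269) and 4234 in the control, a 1.65-fold difference (1.60 to 1.70). Of 63 snoRNA targets, 35 (55.6%) were at least 4-fold higher, beside 11.8% over all targets, and none was at least 4-fold lower. The median log2 ratio of the targets was 2.24. K07C10.2, which lies opposite the ncRNA K07C10.6, had the most snoRNA reads, 9914 reads in exos-10(ok2269) and 1982 in the control, which is 0.694-fold (0.661 to 0.729). K07C10.6 had 9975 sense reads in exos-10(ok2269) and 1979 in the control. Antisense reads of K07C10.2 cannot be told apart from these. Without snoRNA genes that have an exon opposite another gene, there were 36290 reads in exos-10(ok2269) and 1766 in the control, or 2.85-fold (2.72 to 2.99). C16D9.11 had 1175 reads in exos-10(ok2269) and 2 in the control, with an 81.5-fold ratio whose interval ran from 22.5 to 674. Y48A6C.10 had 2691 reads in exos-10(ok2269) and 35 in the control (10.7-fold, 7.65 to 15.4). Y37E3.20 had 2151 reads in exos-10(ok2269) and 62 in the control, beside 85966 sense reads in exos-10(ok2269) and 956 in the control. F19G12.14 had 383 reads in exos-10(ok2269) and none in the control, which is at least 17.7-fold higher against a floor of 3 reads. Lower values than in the control were seen at B0334.12, with 3138 reads in exos-10(ok2269) and 684 in the control (0.637-fold, 0.586 to 0.693), and at F32E10.10, with 291 in exos-10(ok2269) and 123 in the control (0.328-fold, 0.265 to 0.409). The ratios of K07C10.2, B0334.12 and F32E10.10 as a share of all reads were above 1, at 5.12, 4.69 and 2.42.

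**Figure D2:**
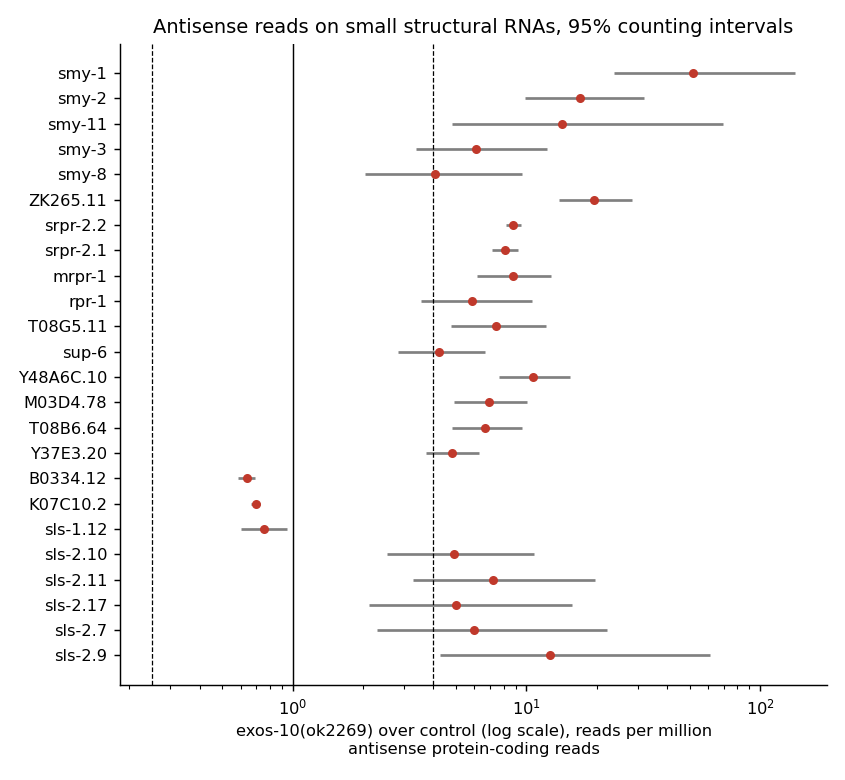
Ratio of exos-10(ok2269) to control in antisense reads per 1000000 antisense protein-coding reads, on a log scale, for selected small structural RNAs with 95% counting intervals as bars. The solid line marks equal levels and the dashed lines 4-fold. The point of smy-1 lies farthest to the right at 51.9, sls-2.11 lies at 7.19, and B0334.12, sls-1.12 and K07C10.2 lie left of the solid line.

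Antisense reads on tRNA genes were 19509 in exos-10(ok2269) and 1710 in the control (1.58-fold, 1.51 to 1.66). Of 32 tRNA targets 8 (25%) were at least 4-fold higher, beside 11.8% over all targets. The 32 together held 558 reads in the control, so most passed the 100-read minimum only through exos-10(ok2269). R11B5.t2 was the largest, with 2752 reads in exos-10(ok2269) and 87 in the control. It lies opposite the ncRNA R11B5.3, which had 2678 sense reads in exos-10(ok2269) and 85 in the control. All 18 tRNA targets with an exon opposite another gene faced an ncRNA whose sense reads were between 92.7 and 139 per 100 antisense tRNA reads in exos-10(ok2269). For 15 snRNA targets in the same position this ranged from 76.7 to 133. In such pairs antisense reads of the tRNA or snRNA cannot be told apart from sense reads of the ncRNA. R02E12.t1, with no such partner, had 541 reads in exos-10(ok2269) and 1 in the control, a ratio of 75.1 with an interval of 13.4 to 2971.

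The ncRNA class as a whole was lower in antisense RPM, and its subsets by the gene on the opposite strand differed in direction. It had 195912 antisense reads in exos-10(ok2269) and 166150 in the control, or 0.164-fold (0.163 to 0.165). Of its 221 targets 98 (44.3%) were at least 4-fold lower and 26 (11.8%) at least 4-fold higher. Over all targets these shares were 7.25% and 11.8%. The class was 1.21-fold higher as a share of all reads, so its direction turns with the scale. Genes with an exon opposite a miRNA gave 18607 reads in exos-10(ok2269) and 119159 in the control, which were 9.50% and 71.7% of the class. The 4131 ncRNA genes with no exon opposite a gene gave 93273 reads in exos-10(ok2269) and 3866 in the control, a 3.35-fold difference (3.24 to 3.46). Between them, the 3576 genes with an exon opposite a gene other than a miRNA gave 84032 reads in exos-10(ok2269) and 43125 in the control, or 0.270-fold (0.267 to 0.274), and 1.99-fold as a share of all reads. They held 83 of the 98 lower targets, and genes opposite a miRNA held 12. Those 83 were 53.9% of the 154 targets in their subset, beside 7.25% over all targets. Of the 55 targets with no exon opposite a gene, 21 (38.2%) were at least 4-fold higher and 3 (5.45%) at least 4-fold lower. T09B4.14, on chromosome I from 6172671 to 6172796 opposite mir-1, had 2990 antisense reads in exos-10(ok2269) and 62696 in the control. The sense reads of mir-1, a muscle miRNA, were 5987 in exos-10(ok2269) and 127705 in the control. F16A11.6, opposite mir-71, had 8817 antisense reads in exos-10(ok2269) and 25542 in the control, beside 17268 sense reads of mir-71 in exos-10(ok2269) and 49047 in the control. Over the 12 such targets, sense miRNA reads were between 100 and 200 per 100 antisense ncRNA reads in exos-10(ok2269) and between 185 and 230 in the control. Those 12 were all at least 4-fold lower in exos-10(ok2269) in antisense RPM. The miRNA sums add the rows of the precursor and the mature miRNA. Antisense reads of these ncRNAs cannot be told apart from sense reads of the miRNAs.

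**Figure D3:**
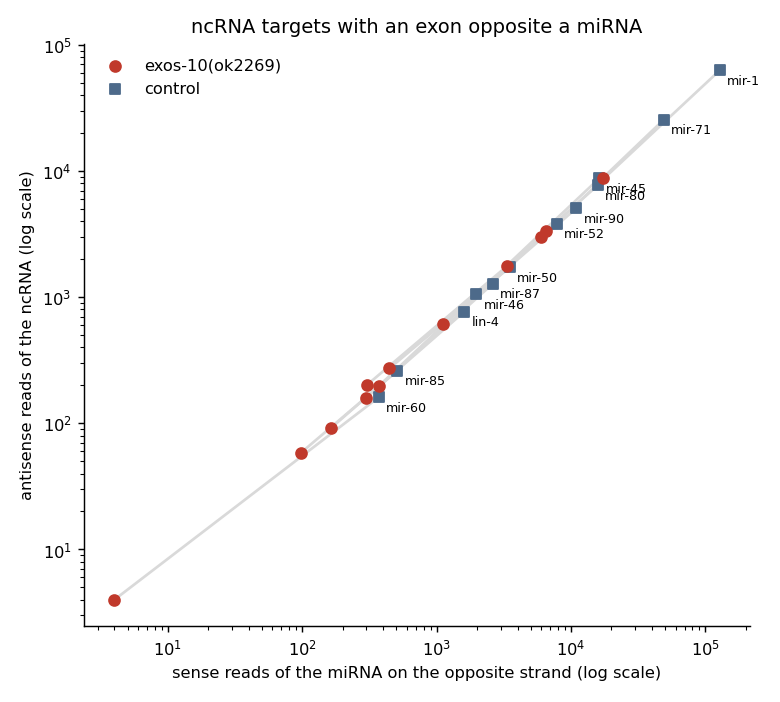
Antisense reads of the 12 ncRNA targets with an exon opposite a miRNA (y axis) against sense reads of that miRNA (x axis), both on log scales, with a line joining the exos-10(ok2269) value (circle) to the control value (square) of each pair. The points run along a narrow band, from 4 reads on C32D5.15 in exos-10(ok2269) to 62696 reads on T09B4.14 in the control.

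C10C6.11 was an ncRNA target of the opposite kind. It had 16449 antisense reads in exos-10(ok2269) and 86 in the control, a 26.5-fold difference (21.5 to 33.2). The snoRNA C10C6.8 on its other strand had 16502 sense reads in exos-10(ok2269) and 76 in the control. Antisense reads of C10C6.11 cannot be told apart from these sense reads of the snoRNA. In total small RNA C10C6.11 had 1187 antisense reads in eri-1(mg366);exos-10(ok2269) and 1490 in eri-1(mg366). Other ncRNA targets, named after their values were seen, had no gene opposite: F39D8.7 had 2893 reads in exos-10(ok2269) and 64 in the control, F15A8.19 had 1915 in exos-10(ok2269) and 25 in the control, and R160.11 had 1723 in exos-10(ok2269) and 25 in the control. Among lincRNAs, linc-100 had 213 reads in exos-10(ok2269) and none in the control, at least 9.85-fold higher, whereas linc-29 had 339 in exos-10(ok2269) and 253 in the control (5.38-fold lower, 4.55 to 6.35, but 1.37-fold higher as a share of all reads).

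Of the 2615 protein-coding targets, 252 (9.64%) were at least 4-fold higher in exos-10(ok2269) and 100 (3.82%) were at least 4-fold lower. Over all targets these shares were 11.8% and 7.25%. The largest differences in antisense RPM in favour of exos-10(ok2269) were at alg-1 and at a pair of neighbouring genes on the X chromosome. The gene alg-1, which encodes an Argonaute of the miRNA pathway, had 22331 antisense reads in exos-10(ok2269) and 372 in the control, an 8.33-fold difference (7.52 to 9.25). It lies on chromosome X from 13949110 to 13956261. F23A7.4 (chromosome X, 16212606 to 16212812) had 19706 reads in exos-10(ok2269) and 120 in the control (22.8-fold, 19.0 to 27.5). Its neighbour F23A7.8 (chromosome X, 16213373 to 16213576) had 9645 in exos-10(ok2269) and 65 in the control (20.6-fold, 16.1 to 26.7). F43E2.6 had the most protein-coding reads in exos-10(ok2269), 23349 against 2181 in the control, but only a 1.49-fold difference (1.42 to 1.55). Its sense reads were almost as many, 22752 in exos-10(ok2269) and 1951 in the control.

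Other protein-coding genes with large differences had less extreme ratios. The E3 ubiquitin ligase gene eel-1 had 7633 reads in exos-10(ok2269) and 222 in the control (4.77-fold, 4.17 to 5.48), and the myosin gene hum-2 had 3432 in exos-10(ok2269) and 102 in the control (4.67-fold, 3.83 to 5.74). The Argonaute gene wago-4 had 3451 reads in exos-10(ok2269) and 171 in the control (2.80-fold, 2.40 to 3.28), and cls-2, which encodes a microtubule-binding CLASP protein, had 3800 in exos-10(ok2269) and 182 in the control (2.90-fold, 2.50 to 3.38). By ratio, Y106G6H.1 had 588 reads in exos-10(ok2269) and 1 in the control, and F31F7.1 had 1426 in exos-10(ok2269) and 6 in the control. Their ratios were 81.6 (14.6 to 3228) and 33.0 (15.1 to 90.0). Of the 357 targets at least 4-fold higher, 154 had 3 reads or fewer in the control.

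**Figure D4:**
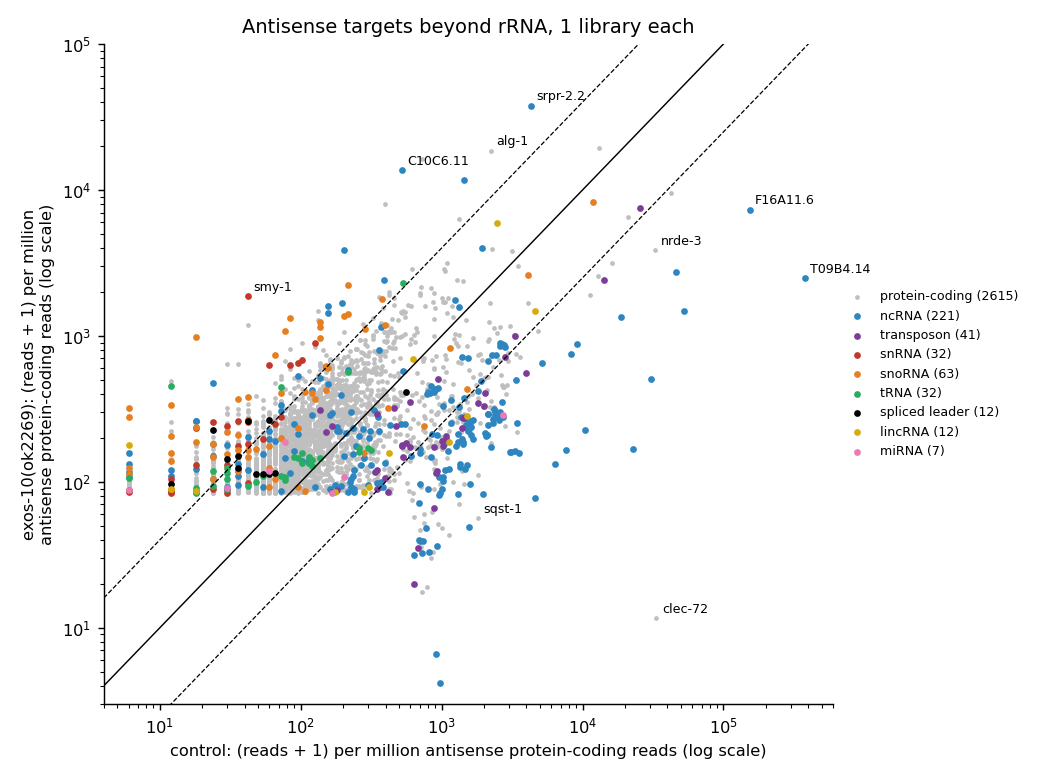
Each of the 3035 targets beyond rRNA, with antisense reads plus 1 per 1000000 antisense protein-coding reads in exos-10(ok2269) on the y axis and in the control on the x axis, both on log scales and coloured by class with the number of targets in the legend. The solid line marks equal levels and the dashed lines 4-fold. The lower edge of the dense cloud is the 100-read minimum in exos-10(ok2269), and clec-72 lies far below the lines, with 13 reads in exos-10(ok2269) and 5577 in the control.

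The cytosolic ribosomal protein genes are highly expressed parts of the translation machinery. Of 79 in the files 76 were targets. Of these 32 (42.1%) were at least 4-fold higher, beside 11.8% over all targets, while none was at least 4-fold lower. Their median log2 ratio was 1.62, beside 0.83 over all targets. Together they had 29304 antisense reads in exos-10(ok2269) and 1314 in the control, a 3.09-fold difference (2.93 to 3.27). The gene rpl-43 had 2231 reads in exos-10(ok2269) and 59 in the control (5.25-fold, 4.05 to 6.92), rps-23 had 777 in exos-10(ok2269) and 15 in the control (7.19-fold, 4.33 to 12.9), and rpl-32 had 835 in exos-10(ok2269) and 16 in the control (7.24-fold, 4.43 to 12.7). Sense reads of these genes were 98698 per 1000000 sense protein-coding reads in exos-10(ok2269) and 56815 in the control. Whether the antisense difference follows that of the sense reads was not tested.

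The histone genes were lower in antisense RPM. Of 72 in the files 67 were targets, with a median log2 ratio of -1.24. Of these 20 (29.9%) were at least 4-fold lower, beside 7.25% over all targets, and none was at least 4-fold higher. They had 38554 antisense reads in exos-10(ok2269) and 14982 in the control, or 0.357-fold (0.350 to 0.364). The gene his-17 had 1352 reads in exos-10(ok2269) and 389 in the control, and his-62 had 1392 in exos-10(ok2269) and 430 in the control. As a share of all reads none of the 67 was at least 4-fold lower and 28 were at least 4-fold higher. Over all 3035 targets 2599 were higher and 16 lower on that scale, so histone genes still lay below most targets. Identical histone copies share reads, so the genes are not independent. Sense histone reads were 9849 per 1000000 sense protein-coding reads in exos-10(ok2269) and 4081 in the control.

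Other gene lists gave smaller counts, to be read beside 11.8% higher and 7.25% lower over all targets. The higher shares were 9.09% for translation factors, 10% for nucleolar factors, 12.5% for RNA polymerase subunits and 14.3% for heat shock genes. These are near the share over all targets. Of 22 translation factor targets 2 were at least 4-fold higher and none was lower. All 20 spliceosome targets lay within 4-fold, as did the 7 germline targets and the 6 targets among exosome subunits and helicases. Among exosome genes, mtr-4, which encodes an exosome helicase, had 274 antisense reads in exos-10(ok2269) and 24 in the control (1.58-fold, 1.04 to 2.52). The gene dis-3, which encodes a catalytic subunit, had 140 in exos-10(ok2269) and 34 in the control (0.571-fold, 0.390 to 0.858). As a share of all reads dis-3 was 4.21-fold higher. Among 8 RNA polymerase subunit targets only rpoa-1, the large subunit of the polymerase that makes rRNA precursors, passed 4-fold, with 2399 reads in exos-10(ok2269) and 70 in the control (4.76-fold, 3.75 to 6.12). Of 10 nucleolar targets 1 was at least 4-fold higher, and fib-1, which encodes the rRNA methyltransferase fibrillarin, had 753 reads in exos-10(ok2269) and 27 in the control (3.87-fold, 2.64 to 5.91). Of 7 heat shock targets only hsp-60, the mitochondrial chaperonin, passed, with 1274 reads in exos-10(ok2269) and 33 in the control (5.36-fold, 3.79 to 7.82). In the files 10 of the listed ERI siRNA targets were found, and only K02E2.6, with 102 reads in exos-10(ok2269) and 15 in the control, and W04B5.1, with 167 in exos-10(ok2269) and 29 in the control, reached 100. No sperm, intestine or pharynx marker did. Of 4 collagen targets and 3 body muscle targets 1 each passed 4-fold, col-60 with 123 reads in exos-10(ok2269) and 1 in the control, and act-1 with 152 in exos-10(ok2269) and 2 in the control. Their intervals, 3.01 to 680 and 2.87 to 87.9, reach below 4-fold.

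**Figure D5:**
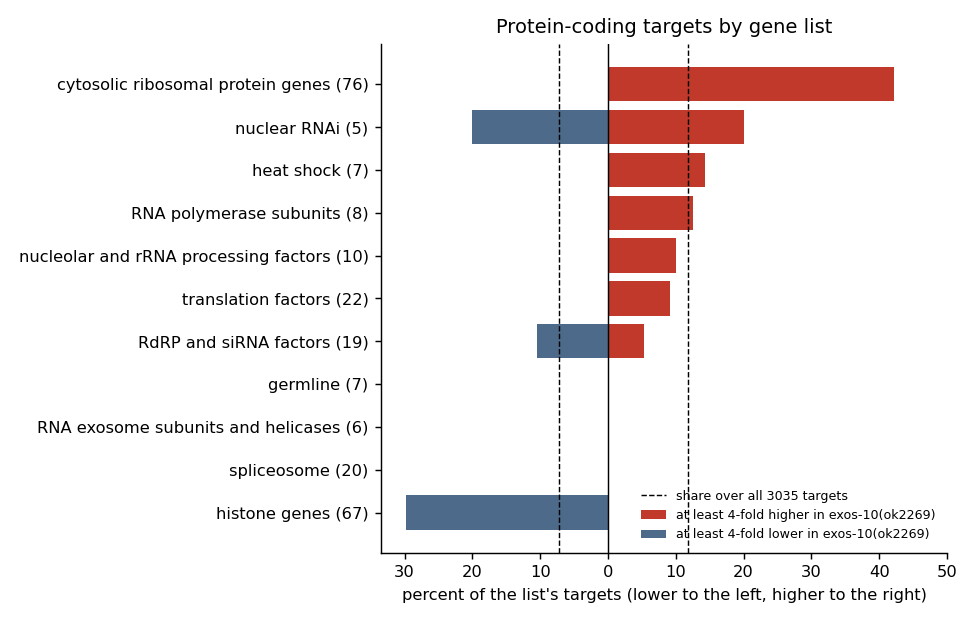
Percent of the targets of each gene list that were at least 4-fold higher (right) or at least 4-fold lower (left) in exos-10(ok2269) than in the control, with the number of targets in brackets, for lists with 5 or more targets. Dashed lines mark the shares over all 3035 targets, 11.8% and 7.25%. Ribosomal protein genes reach 42.1% on the right and histone genes 29.9% on the left.

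Of 5 targets among the nuclear RNAi genes, 1 was at least 4-fold higher and 1 at least 4-fold lower. These are too few to set beside the shares over all targets, 11.8% and 7.25%. The gene nrde-2, whose product acts with NRDE-3 in nuclear silencing, had 2190 antisense reads in exos-10(ok2269) and 75 in the control (4.05-fold, 3.22 to 5.17). The germline Argonaute gene hrde-1 had 1110 in exos-10(ok2269) and 76 in the control (2.03-fold, 1.61 to 2.59). By contrast nrde-3 had 4658 reads in exos-10(ok2269) and 5468 in the control, 8.46-fold lower in antisense RPM (8.13 to 8.80). As a share of all reads it was 0.871-fold. Since the tagged transgene carries this sequence, antisense reads of the transgene and of the chromosomal copy cannot be told apart. The neuronal gene unc-119 had 2277 reads in exos-10(ok2269) and 1890 in the control (5.98-fold lower, 5.62 to 6.36). As a share of all reads unc-119 was 1.23-fold higher. In total small RNA unc-119 had 870 antisense RPM in eri-1(mg366) and 15.4 in wild-type N2 animals. For nrde-3 these levels were 3561 in eri-1(mg366) and 8.56 in N2. Whether reads of unc-119 also come from a transgene was not tested.

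The single most reduced target was clec-72, a C-type lectin gene on chromosome IV from 3944816 to 3947362. It had 13 antisense reads in exos-10(ok2269) and 5577 in the control, a 3092-fold lower level (1806 to 5810), and 419-fold lower as a share of all reads. Its sense reads were higher, at 509 in exos-10(ok2269) and 49 in the control. In other NRDE-3 libraries of the same background clec-72 had 34 antisense reads in exos-1(ust57) and 5118 in dis-3(ust56). It had 3 in dis-3(ust56) with rrf-1(pk1417) and rrf-2(ok210). In antisense RPM these levels were 26.96, 114218 and 14.79, in the same order, and 33442.5 in the control. On that scale only dis-3(ust56) lay above the control. Those libraries share this control. In total small RNA it had 1 read in eri-1(mg366);exos-10(ok2269) and 4 in eri-1(mg366).

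Of the 220 targets at least 4-fold lower, 16 were also at least 4-fold lower as a share of all reads. Of these 10 were ncRNAs opposite a miRNA, 1 was another ncRNA, 1 was a transposon gene and 4 were protein-coding, among them clec-72, sqst-1 and osm-3. The genes described next were named after their values were seen. The gene sqst-1, which encodes an autophagy receptor, had 67 reads in exos-10(ok2269) and 302 in the control (32.5-fold lower, 24.9 to 43.0). In total small RNA, from libraries other than these, it had 31 reads in eri-1(mg366);exos-10(ok2269) and 1088 in eri-1(mg366). The kinesin gene osm-3, which acts in sensory cilia, had 20 reads in exos-10(ok2269) and 120 in the control (43.2-fold lower, 26.8 to 73.3). Its total small RNA reads were 17 in eri-1(mg366);exos-10(ok2269) and 453 in eri-1(mg366). The ribonuclease H gene rnh-1.3 had 39 reads in exos-10(ok2269) and 144 in the control, and acdh-1, an acyl-CoA dehydrogenase gene whose expression responds to the bacterial diet, had 61 in exos-10(ok2269) and 155 in the control. Neither was among the 16. For rnh-1.3 total small RNA held 29 reads in eri-1(mg366);exos-10(ok2269) and 1303 in eri-1(mg366), and acdh-1 had none in eri-1(mg366);exos-10(ok2269) and 130 in eri-1(mg366), so sqst-1, osm-3, rnh-1.3 and acdh-1 were lower in both assays. Sense reads of acdh-1 were 110 in exos-10(ok2269) and 16539 in the control, and in total small RNA 49 in eri-1(mg366);exos-10(ok2269) and 1930 in eri-1(mg366).

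Among the protein-coding targets with the largest differences in favour of the control were Y38E10A.14, M01E5.2 and pqn-96. Y38E10A.14 (chromosome II, 12623110 to 12624533) had 11438 reads in exos-10(ok2269) and 7110 in the control (4.48-fold lower, 4.35 to 4.61). M01E5.2 had 3821 in exos-10(ok2269) and 2689 in the control (5.07-fold lower, 4.83 to 5.33), and pqn-96 had 7847 in exos-10(ok2269) and 3490 in the control (3.21-fold lower, 3.08 to 3.34). As a share of all reads Y38E10A.14, M01E5.2 and pqn-96 were higher in exos-10(ok2269), at 1.65-fold, 1.45-fold and 2.30-fold, so their direction depends on the scale. Of the 100 protein-coding targets lower in antisense RPM, 4 were at least 4-fold lower as a share of all reads.

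Transposon targets were lower as a group. Antisense transposon reads were 29079 in exos-10(ok2269) and 16225 in the control, or 0.249-fold (0.244 to 0.254). Of 41 targets 19 (46.3%) were at least 4-fold lower, beside 7.25% over all targets, and none was at least 4-fold higher. ZC132.5 had 8979 reads in exos-10(ok2269) and 4272 in the control (3.43-fold lower, 3.31 to 3.56), Y60A3A.27 had 2893 in exos-10(ok2269) and 2380 in the control (5.93-fold lower, 5.61 to 6.26), and T27C5.9 had 671 in exos-10(ok2269) and 662 in the control (7.11-fold lower, 6.38 to 7.93). The class was 1.83-fold higher as a share of all reads, so this direction also turns with the scale.

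Of the protein-coding targets 95 lay on the X chromosome, and each autosome held from 398 to 606. On X 14.7% were at least 4-fold higher and 10.5% at least 4-fold lower. On the autosomes the shares ran from 7.76% to 11.3% higher and from 1.81% to 5.78% lower. The median log2 ratio was 0.54 on X and 0.83 to 0.91 on the autosomes. In total small RNA, also in antisense RPM, the medians were -0.51 on X and 0.67 to 0.89 on the autosomes. By sense reads, in 4 equal groups from the lowest to the highest, 12.2%, 8.56%, 7.04% and 10.7% were at least 4-fold higher.

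Total small RNA of eri-1(mg366);exos-10(ok2269) and eri-1(mg366), sequenced without immunoprecipitation, shares no library with the NRDE-3 comparison. Of the 357 targets higher with NRDE-3, 279 had 10 or more reads in both of those libraries together, and 269 of these were higher in eri-1(mg366);exos-10(ok2269), with a median log2 ratio of 2.11. Over all targets it was 2093 of 2694, with a median of 0.72. Here the scale acts the other way, since antisense protein-coding reads were 2.55% of all reads in eri-1(mg366);exos-10(ok2269) and 4.58% in eri-1(mg366), which makes the folds 0.556 times as large per all reads. On that scale 1202 of 2694 targets were higher, with a median of -0.13, and 218 of the 279 were higher, with a median of 1.27. Of the 220 lower targets 208 had enough reads, and 66 were higher, with a median of -0.61. In antisense RPM the snRNA targets were higher in 28 of 28, the snoRNA targets in 42 of 44 and the ribosomal protein genes in 69 of 70, and as a share of all reads these were 28, 38 and 67. Histone genes, lower with NRDE-3, were higher in 55 of 60 in total small RNA with a median of 1.36 (47 of 60 and 0.51 as a share of all reads), and this difference between the assays was not tested. Transposon targets were higher in 8 of 39, with a median of -0.91. For srpr-2.2 there were 58 reads in eri-1(mg366);exos-10(ok2269) and 2 in eri-1(mg366), for alg-1 110 in eri-1(mg366);exos-10(ok2269) and 4 in eri-1(mg366), and for smy-1 319 in eri-1(mg366);exos-10(ok2269) and 5 in eri-1(mg366).

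The other exosome mutants of the series, exos-1(ust57) and dis-3(ust56), were compared with the same control, so their values are only set side by side. Over the 357 higher targets the median log2 ratio to the control was 2.58 in exos-10(ok2269), 2.15 in exos-1(ust57), 1.90 in dis-3(ust56) and 1.89 in dis-3(ust56) with rrf-1(pk1417) and rrf-2(ok210). The choice of members favours the first value most. It also raises the other values, since low counts in the shared control were part of the choice. Over all 3035 targets the medians were 0.83, 0.43, 0.31 and 0.64, in the same order. The snRNA class was 7.58-fold higher in exos-10(ok2269), 3.24-fold in exos-1(ust57), 2.39-fold in dis-3(ust56) and 7.01-fold in dis-3(ust56) with rrf-1(pk1417) and rrf-2(ok210). The dis-3(ust56) library had only 44809 antisense protein-coding reads, which limits its values.

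Sense reads of tissue marker genes in the NRDE-3 libraries are given as a rough view only. They are small RNAs recovered with the immunoprecipitate and do not measure mRNA levels of the animals. The study left sense protein-coding reads out of its normalization number as possible degradation fragments. Per 1000000 sense protein-coding reads, germline markers had 1299 in exos-10(ok2269) and 1366 in the control, body muscle markers 26942 in exos-10(ok2269) and 18313 in the control, and intestine markers 6864 in exos-10(ok2269) and 8320 in the control. Sperm genes had 589 in exos-10(ok2269) and 156 in the control, cuticle collagens 45986 in exos-10(ok2269) and 28749 in the control, and pharynx markers 1450 in exos-10(ok2269) and 2847 in the control. In such samples fewer cells of a type, less RNA per cell and a different recovery of fragments cannot be told apart. The part of these differences in the antisense values was not tested.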

How the data were processed

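NRDE-3-associated small RNAs of exos-10(ok2269) and control animals were analysed, with 1 library each, beside 3 other NRDE-3 libraries and 3 total small RNA libraries. The authors mapped clean reads with Bowtie2 to the genome and the WS243 transcriptome and deposited sense and antisense read counts per transcript, without normalization. The 56373 transcript rows were summed per gene, empty cells were read as 0, and 3 rows without a gene (0.00155% of exos-10(ok2269) reads, 0.000576% of control reads) were left out. Reads on isoforms and copies can be counted more than 1 time. Gene positions and opposite-strand exons came from the Ensembl annotation of WBcel235, which held 44848 of 45506 genes. A read in the files has no length or sequence, and transcript sequences were not used here.

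Levels were antisense reads per 1000000 antisense protein-coding reads. Ratios have exact conditional binomial intervals, at 95%. A difference was counted past 4-fold with a pseudocount of 1. The floor was 3 reads, or 2.50 antisense RPM in exos-10(ok2269) and 18.0 in the control. PCR reads are not independent molecules. The calculation was tested on simulated data. Python 3.11.15, pandas 2.3.3, numpy 2.4.6 and scipy 1.17.1 were used. Genes were named by a rule on the size of the difference, the ratio, the reads and the gene lists, and exceptions are stated. The members and lists were chosen with earlier results of these data known. Alternatives were other denominators, minimums, pseudocounts, folds, transcript rows and the omission of opposite-strand genes.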

Additional observations from a re-analysis of the deposited data

Results flagged for a closer look

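On the antisense RPM scale, antisense reads on miRNA genes differed in direction between the assays. With NRDE-3 they were 0.370-fold of the control in exos-10(ok2269) (0.343 to 0.400), from 2391 reads in exos-10(ok2269) and 896 in the control. Total small RNA gave a 2.56-fold higher level (1.98 to 3.32), from 172 reads in eri-1(mg366);exos-10(ok2269) and 97 in eri-1(mg366). The NRDE-3 direction holds on that scale alone of the 3 computed, being 2.73-fold (2.53 to 2.95) as a share of all reads and 1.28-fold (1.18 to 1.38) on the normalization number. The ratio in total small RNA, as a share of all reads, was 1.42 (1.10 to 1.84). The gene mir-5592.1, which lies opposite mir-5592.2, held 344 of the reads in exos-10(ok2269) and 452 of those in the control, and without it the NRDE-3 ratio was 0.640 (0.577 to 0.710), an alternative chosen after seeing the data. Of the 7 miRNA targets 4 were above equality. With 1 library per condition the difference between the assays was not tested.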

How the results depend on the processing

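No paired analysis was possible because each condition has 1 library, and for the same reason no library could be left out. The denominator moved the values most. Per all reads, the ratios of exos-10(ok2269) to control were 129 for rRNA, 55.8 for snRNA and 12.1 for snoRNA, that of ncRNA turned to 1.21, the median log2 ratio of the targets was 3.71, and 2599 were higher and 16 lower. On the normalization number these were 60.5, 26.2, 5.69, 0.565, 2.62, 2160 and 47, in the same order. Per sense miRNA read, they were 804, 348, 75.6, 7.51 (turned), 6.35, 2975 and 2. Without the 10 most abundant genes in the denominator, rRNA was 16.1, snoRNA 1.52, ncRNA 0.151 and the median 0.71. With the largest transcript row per gene, rRNA was 19.5, snoRNA 1.84, ncRNA 0.182 and the median 1.01. A minimum of 50 reads gave 613 higher, and one of 200 reads gave 197 higher and a median of 0.94. A minimum of 1 read gave 811 higher, 3191 lower and a median of -0.68, which turned its direction. A pseudocount of 5 gave 121 higher and a median of 0.51, and a 2-fold threshold gave 1311 higher and 399 lower. Without genes overlapping another on the opposite strand, rRNA was 27.9, snoRNA 3.86, ncRNA turned to 2.43 and 95 targets were lower. In alternatives chosen after seeing the data, an equal minimum of 600 antisense RPM gave 63 higher and a median of -1.43, which turned its direction, and leaving out genes opposite a miRNA gave 0.524 for ncRNA. Depth limits genes with 3 or fewer control reads, which were 178 of the targets.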
